A study of Xenopus tropicalis with 132 samples.

Results

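Regions of Xenopus tropicalis chromatin with no open-chromatin peak in the blastula, a peak in the early gastrula and still a peak in the neurula were followed through 12 ATAC-seq peak lists. For each stage or tissue, the peaks of both replicate lists were merged, and a merged region was kept where it held a peak of each list. A stage 10.5 region was taken as opening at stage 10.5 and kept when it overlapped a stage 12 region and a stage 16 region by at least 1 base and overlapped no single peak of either stage 9 list. Of 29364 stage 10.5 regions, 8205 met this rule, which is 27.9%. They were thus selected on the presence and absence of peaks in the stage 9, 10.5, 12 and 16 lists, so their values in those lists are given as a description with no test. The lists of the explants played no part in the choice.

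ATAC-seq uses a transposase that cuts DNA where it is not covered by nucleosomes, so that a pile of cut ends marks a promoter, an enhancer or another accessible element. In Xenopus, most zygotic transcription starts at the mid-blastula, and the germ layers are laid down and patterned during gastrulation, when many enhancers become accessible under the action of maternal and zygotic transcription factors. The animal cap (AC) is the ectoderm-forming roof of the embryo, which gives epidermis and neural tissue, and the dorsal marginal zone (DMZ) holds the blastopore lip and Spemann's organizer, which gives dorsal mesoderm and endoderm and induces the neural plate.

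Whole embryos were sampled at stage 9 (blastula), stage 10.5 and stage 12 (gastrula) and stage 16 (neurula), and AC and DMZ explants at stage 10.5, with 2 libraries for each of these 6 groups. The labels name no treatment, strain or genotype for these libraries, and nothing says that replicates came from separate clutches, so spread between libraries may be technical. The lists held very different numbers of peaks. The stage 9 lists held 10204 and 19883 peaks, the stage 10.5 lists 38241 and 68786, the stage 12 lists 46198 and 37506, and the stage 16 lists 112446 and 81806. The AC lists held 37443 and 42006 peaks, against 14897 and 16087 in the DMZ lists. The read depth behind a list is unknown, so a missing peak can be closed chromatin or a library too shallow to show it, and these cannot be told apart here. For this reason shares are given both for the lists as deposited and for an equal number of peaks from the top of each list, ranked by the deposited −log10 q. The build behind the coordinates was not given in the sources used here, and no genome sequence or gene annotation on it was used, so regions are named by position alone and the tissue labels were not checked against marker genes.

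Most stage 10.5 regions without a stage 9 peak overlapped a region of a later stage. Of the 29364 stage 10.5 regions, 13593 (46.3%) overlapped a stage 9 peak, 5537 of them a stage 9 region with a peak of both lists and 8056 a single stage 9 peak only. Of the 15771 regions with no stage 9 peak, 8994 overlapped a stage 12 region and 11561 a stage 16 region. Both together gave the 8205 regions that opened and were kept, 52.0% of those without a stage 9 peak. A further 789 had a stage 12 region and no stage 16 region, 3356 had a stage 16 region and no stage 12 region, and 3421 had neither. Of the 13593 regions with a stage 9 peak, 11208 overlapped both a stage 12 and a stage 16 region. Regions without a stage 9 peak were thus kept less often than regions with one. Regions with a stage 9 peak were also the higher ones at stage 10.5. In 5 equal groups by stage 10.5 fold enrichment, the share with a stage 9 peak was 11.1% in the lowest and 92.3% in the highest. The part of peak height in this contrast was not tested. The stage 10.5 regions also held the classes used below for contrast. There were 4944 regions open from stage 9 through 16, each overlapping a region of stages 9, 12 and 16, and 1381 regions open only at stage 10.5, with no peak in any other whole-embryo list.

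The number of regions that opened and were kept moved with the list that stood for a stage. With the stage 9 replicate 1 list standing alone for that stage, the count was 13269, and with stage 10.5 replicate 2 standing alone for stage 10.5 it was 12383. With the same number of peaks in every stage list it was 566. Around the limit of the rule, 303 of the 8205 regions had a stage 9 peak within 100 bases and 20 within 10 bases. The closest, on Chr03:38847526-38847695, touched a stage 9 peak end to end, and had a fold enrichment of 5.66 and 10.2 in the stage 10.5 lists. On the other side of the limit, a region on Chr02:25448903-25449315 overlapped a stage 9 replicate 2 peak of 5.22-fold by 3 bases and was left out, with 7.43-fold and 11.01-fold at stage 10.5. These are single regions on either side of a limit of 1 base, shown as a description. Among 11208 kept regions that were left out for a stage 9 peak, 10 overlapped that peak by no more than 10 bases and 2295 by no more than 100 bases. The stage 9 peaks had median widths of 111 and 120 bases and were as narrow as 73. An overlap of up to 100 bases can thus be a whole stage 9 peak, and the 2295 are not all near the limit.

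In all 6 lists that chose them, these regions had median folds above those of the whole list and below those of regions open throughout. Each region needed a peak of both lists and takes its highest peak, so a place above the median single peak is partly built in. Beside other regions they were not high. The geometric mean of both stage 10.5 folds had a median of 8.17 over them, against 8.96 over all stage 10.5 regions. The fold enrichment is the authors' own value for each peak, its pile of reads over the background that the peak caller estimated in that library. At stage 10.5 the median fold over the 8205 regions was 7.10 in replicate 1, with a middle range of 5.87 to 9.00, and 9.52 in replicate 2, with a middle range of 7.10 to 12.5. The stage 12 medians were 8.46 and 7.98, and the stage 16 medians 11.9 and 11.4. Within the list, these medians stood at percentiles 54.5 and 70.7 at stage 10.5, 69.7 and 62.6 at stage 12, and 85.8 and 80.1 at stage 16. The lists differ in length, so these percentiles place the regions within each list and show no change between stages. Regions open from stage 9 through 16 had medians of 14.1 and 19.97 at stage 10.5, 14.1 and 14.1 at stage 12, and 19.5 and 21.0 at stage 16. Regions open only at stage 10.5 had medians of 5.48 and 6.87 at that stage. The regions that opened and were kept thus lay between the other classes in both stage 10.5 lists and below the regions open throughout in all 6 lists.

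**Figure D1:**
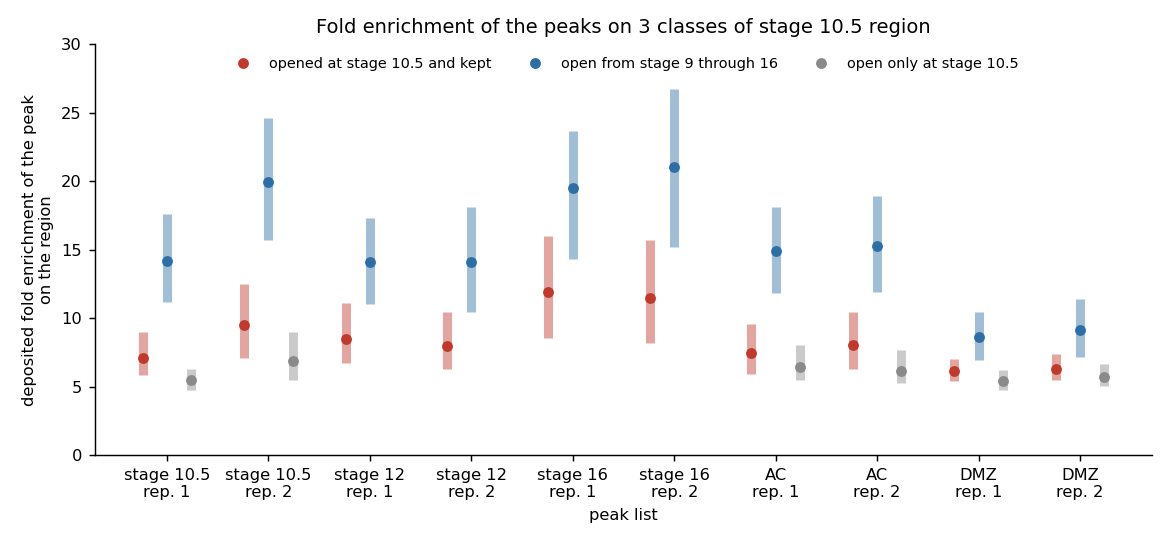
Deposited fold enrichment (y axis, linear) of the highest peak on each region in 10 peak lists (x axis), for regions with a peak in that list. Dots are medians and bars run from the lower to the upper quartile over regions. Regions that opened at stage 10.5 and were kept (red) lie below the regions open from stage 9 through 16 (blue) in all 10 lists, with medians from 6.13 in DMZ replicate 1 to 11.9 in stage 16 replicate 1.

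Folds of different lists are not on a common scale, so the share among an equal number of peaks is given beside them. Among the top 10204 peaks of each list, the length of the shortest list, 20.5% and 17.4% of the regions that opened and were kept had a peak at stage 10.5. The shares were 33.0% and 31.7% at stage 12, and 32.3% and 28.3% at stage 16. Both lists of each later stage were therefore above both lists of stage 10.5. Regions open from stage 9 through 16 went the other way, with 86.8% and 83.6% at stage 10.5, 82.3% and 80.4% at stage 12, and 75.6% and 77.2% at stage 16. The choice of the classes bears on both orders. Of the 5873 stage 10.5 regions with the highest stage 10.5 folds, 92.3% had a stage 9 peak and so were barred from those that opened and were kept. These shares were not computed over all stage 10.5 regions, so the orders describe the chosen classes and show no change with time. Of the 8205 regions, 246 were among the top peaks in all 6 lists of stages 10.5, 12 and 16, and 2813 (34.3%) were among them in no list. A group of 1017 regions (12.4%) stood among the top peaks of both stage 12 lists or both stage 16 lists while in neither stage 10.5 list.

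**Figure D2:**
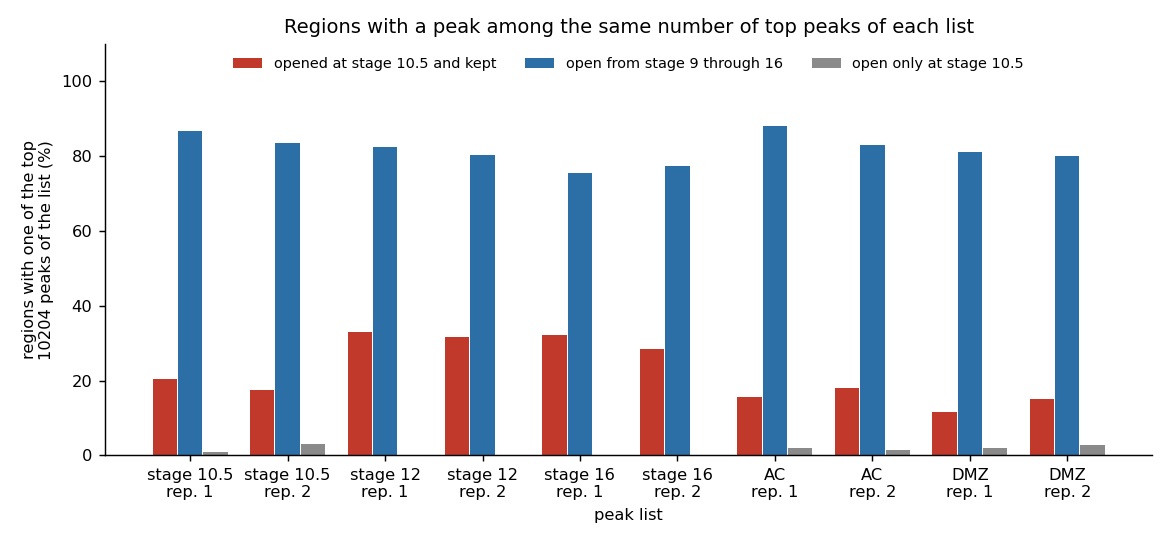
Share of regions in percent (y axis, from 0) that have a peak among the top 10204 peaks of each list by −log10 q (x axis). Regions that opened at stage 10.5 and were kept (red) reach 17.4% to 20.5% in the stage 10.5 lists and 28.3% to 33.0% in the stage 12 and stage 16 lists, and the explant bars lie between 11.5% and 18.1%.

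The best-supported regions were ranked by the lowest of their 6 fold enrichments over the stage 10.5, 12 and 16 lists. The highest, on Chr01:99936807-99937268 (462 bases), had 19.1-fold and 22.9-fold at stage 10.5, 26.0-fold and 21.7-fold at stage 12, and 31.3-fold and 26.9-fold at stage 16. It was high in all 6 lists. Its highest folds were at stage 16, where the medians of the class were also highest. Its nearest stage 9 peak lay 25.7 kb away. In the explants it had 13.05-fold and 17.4-fold in AC and 6.97-fold and 8.65-fold in DMZ, so that all 4 explant libraries called it. Next, Chr05:74213044-74213437 had 16.9-fold and 20.4-fold at stage 10.5, 16.6-fold and 28.1-fold at stage 12, and 19.5-fold and 16.6-fold at stage 16. It stood 0.846 kb from a region open from stage 9 through 16, whereas the region next in order, Chr01:63132518-63133361, was 741 kb from the nearest such region. That 844-base region had 18.0-fold and 27.0-fold at stage 10.5, 16.6-fold and 18.0-fold at stage 12, and 19.0-fold and 17.4-fold at stage 16, with 14.3-fold and 23.9-fold in AC against 5.31-fold and 7.08-fold in DMZ. Chr01:51377517-51377988 had 16.4-fold or more in each of the 6 lists, and its AC values were 6.25-fold and 14.1-fold. Chr01:18774127-18774883 had 16.2-fold to 21.8-fold over the 6 lists, 6.07-fold and 8.96-fold in AC, and no peak in either DMZ list. It was the exception among these 5, of which 4 had peaks in all 4 explant lists. At the lower limit of 10-fold or more in all 6 lists stood 446 of 8205 (5.44%). This share is not given for all stage 10.5 regions, so it has no background.

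The regions that opened and were kept were narrow, with a median width of 252 bases against 499 for regions open from stage 9 through 16, 186 for regions open only at stage 10.5 and 284 for all stage 10.5 regions. The middle range was 188 to 344 bases, and 7.63% held more than 1 peak of a list, against 23.2% of the regions open throughout. The points of highest signal at different stages lay close together, as they did in regions open from stage 9 through 16. Between stage 10.5 and stage 12 the summits of same-numbered libraries lay a median of 47 and 43 bases apart, and between stage 10.5 and stage 16 a median of 39 and 35 bases. Replicates of a single stage differed by medians of 36 bases at stage 10.5, 41 at stage 12 and 30 at stage 16, so the shift between stages was about as large as that between replicates. The summits compared belong to peaks that overlap a single region, which bounds how far apart they can lie. In regions open from stage 9 through 16 the medians from stage 10.5 were 47 and 43 bases to stage 12. To stage 16 they were 35 and 34 bases. Few of these regions shared a later region with each other, and sharing with stage 10.5 regions outside the class was not counted. Only 545 shared a stage 12 region with another member of the class and 487 a stage 16 region, and 7922 (96.6%) carried a peak of all 6 lists on the region itself.

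The AC and DMZ lists, which the rule did not use, called more of these regions in AC than in DMZ. A peak of AC replicate 1 lay on 64.6% of them and a peak of AC replicate 2 on 73.0%, against 19.9% for DMZ replicate 1 and 28.1% for DMZ replicate 2. Among all stage 10.5 regions the shares were 71.9% and 75.3% in AC, and 38.6% and 42.8% in DMZ, so the regions that opened and were kept lay below this background in all 4 explant lists. The mean was 68.8% ± 5.91 in AC and 24.0% ± 5.79 in DMZ (SD, n = 2 libraries each). The difference, AC minus DMZ, was 44.8 percentage points, larger than the spread between replicates. A two-sided exact permutation test over the 4 libraries gave p = 0.33, which is the smallest value that 2 libraries against 2 allow. With the top 14897 peaks of every explant list, the length of the shortest, the shares were 28.3% and 32.3% in AC against 19.9% and 25.6% in DMZ, and the difference shrank to 7.56 points. Over all stage 10.5 regions these equal AC lists gave 45.6% and 44.5%, against 38.6% and 40.5% for the DMZ lists. The same difference over all stage 10.5 regions was 5.48 points with equal lists and 32.9 points with the lists as deposited.

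Counted as regions with a peak of both lists of a tissue, 4756 of the regions that opened and were kept (58.0%) had an AC region, where the background over all stage 10.5 regions was 65.8%. A DMZ region lay on 958 (11.7%), where the background was 29.8%, and both an AC and a DMZ region on 876 (10.7%), where it was 28.9%. With equal lists the shares were 20.4% for AC (background 37.3%), 11.2% for DMZ (background 29%) and 6.84% for both (background 24.6%). Seen from the explants, 18.9% of 25506 AC regions and 10.0% of 9583 DMZ regions held a region that opened and was kept. The shares of explant regions holding any stage 10.5 region are not given, so these values have no background. They are also not given for equal lists. No explant peak at all lay on 1436 (17.5%), near the background of 16.4%. These 1436 were also low in the whole embryo, with stage 10.5 medians of 6.20-fold and 7.12-fold, against 10.0-fold and 14.4-fold for the 876 with both an AC and a DMZ region.

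Set beside the other classes, regions that opened and were kept were found in explants less often than regions open from stage 9 through 16 and more often than regions open only at stage 10.5. The AC lists covered 99.2% and 98.9% of the regions open throughout, and the DMZ lists 89.5% and 90.8%. Per library, the difference from these was -34.5 and -26.0 points for AC, and -69.6 and -62.7 points for DMZ. It averaged -48.2 ± 21.2 points (SD, n = 4 libraries). A two-sided exact sign-flip permutation test gave p = 0.13, the smallest value 4 pairs allow. The 4 libraries are of 2 tissues, so this SD holds the gap between AC and DMZ as well as the spread between replicates. Of the regions open only at stage 10.5, the AC lists covered 30.7% and 31.0% and the DMZ lists 6.15% and 7.02%. The difference from these was 33.9 and 42.0 points for AC, and 13.7 and 21.0 points for DMZ. It averaged 27.7 ± 12.7 points, an SD that again spans both tissues, and was positive in 4 of 4 libraries (exact sign-flip permutation test, p = 0.13).

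The height of the whole-embryo peak moved with all of these shares. The 29364 regions were put in 5 equal groups by the geometric mean of their stage 10.5 folds, from 3.36 to 6.37 in group 1 up to 14.2 to 35.7 in group 5. The share of regions with a stage 9 peak was 11.1% in group 1 and 92.3% in group 5. Of the regions that opened and were kept, 1636 fell in group 1, 2181 in group 2, 2356 in group 3, 1596 in group 4 and 436 in group 5. Their AC replicate 1 share was 41.0% in group 1, 58.3% in group 2, 69.9% in group 3, 82.8% in group 4 and 89.9% in group 5. Their DMZ replicate 1 share was 4.03%, 8.39%, 20.2%, 39.4% and 63.8% over the same 5 groups. Over all stage 10.5 regions the AC replicate 1 shares were 35.7%, 56.9%, 76.2%, 92.1% and 98.7%. The DMZ replicate 1 shares were 4.43%, 11.3%, 28.6%, 58.0% and 90.8%. In groups 1 and 2 the regions that opened and were kept thus lay above this background in AC replicate 1. The same held in AC replicate 2, with 47.3% and 65.5% against 39.7% and 61.5%. With equal lists it did not hold for AC replicate 1 in group 2, with 16.7% against 18.1%, and it held in the other AC values of these groups. In group 1, DMZ replicate 2 as deposited was also above its background, with 6.36% against 6.03%, while DMZ replicate 1 was below. Both tissues thus had peaks on more of the regions the higher the whole-embryo peak. Within groups of like height, the regions that opened and were kept still lay below those open throughout, by a mean of -24.1 ± 8.03 points. They lay above those open only at stage 10.5, by 13.6 ± 9.37 points (SD, n = 4 libraries, exact sign-flip permutation p = 0.13 for each). Both SDs span AC and DMZ libraries, not replicates alone. With equal lists as well, these differences were -28.8 and 9.12 points. Each group counted equally in these means, whatever its number of regions. Group 5 held no region open only at stage 10.5, so the contrast with that class rests on groups 1 to 4. Group 4 held only 32 regions of that class, against 791 in group 1. In group 5 the AC shares were 89.9% and 97.0% for regions that opened and were kept, against 99.9% and 99.9% for regions open throughout. The DMZ shares there were 63.8% and 79.4%, against 96.5% and 97.5%. Height was matched only in part, since in group 5, which holds 3461 of the 4944 regions open throughout, the median fold was 15.8 for regions that opened and were kept and 18.7 for regions open throughout, and group 1 holds only 27 regions open throughout. The order of the 3 classes in these averages was the same in all 4 explant libraries. These differences were smaller than those over regions of any height.

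**Figure D3:**
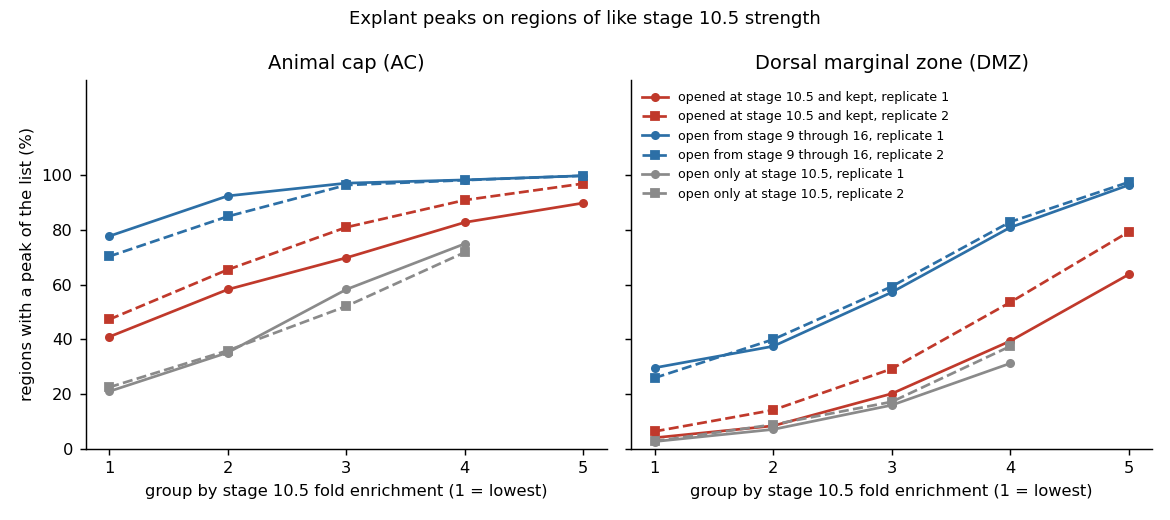
Share of regions in percent (y axis) with a peak in the AC lists (left) and DMZ lists (right), by group of stage 10.5 fold enrichment from lowest (1) to highest (5). Solid lines are replicate 1 and dashed lines replicate 2. The regions that opened and were kept (red) run from 41.0% to 89.9% in AC replicate 1 and from 4.03% to 63.8% in DMZ replicate 1, below the regions open from stage 9 through 16 (blue). No region open only at stage 10.5 (grey) fell in group 5.

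Regions high at stage 10.5 had a peak in each of the 4 explant libraries more often than regions high at a later stage alone. The explants were themselves of stage 10.5. The median stage 10.5 fold, the geometric mean of both lists, was 14.4 for the first set and 7.80 for the second. The part of this height in the shares was not tested, and the shares of such sets over all stage 10.5 regions are not given. The 767 regions among the top 10204 peaks of both stage 10.5 lists had AC shares of 87.6% and 94.9% and DMZ shares of 56.8% and 71.4%. The 1017 that stood among the top peaks of a later stage and in neither stage 10.5 list had 69.8% and 72.3% in AC and 16.8% and 23.8% in DMZ, close to the 64.6%, 73.0%, 19.9% and 28.1% of all regions that opened and were kept.

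Among regions with peaks in a single explant tissue, AC was the more frequent. An AC region with no DMZ peak lay on 2394 of the 8205 (29.2%; background 20.1%), and a DMZ region with no AC peak on 26 (0.317%; background 0.303%). With equal lists the counts were 544 for AC (6.63%; background 4.62%) and 154 for DMZ (1.88%; background 1.55%). The AC kind was therefore above its background in both counts, and the DMZ kind was near it. These backgrounds were not matched for peak height. The median stage 10.5 fold, the geometric mean of both lists, was 8.17 for regions that opened and were kept and 8.96 for all stage 10.5 regions. In the equal-list counts, a region without a peak of a tissue can still have one below the top 14897 peaks. The 2394 with AC alone had a median width of 240 bases, against 394 bases for the 26 with DMZ alone. Their stage 10.5 medians were 7.05-fold and 9.32-fold for AC alone, against 7.76-fold and 12.2-fold for DMZ alone. Their stage 16 medians were 11.9-fold and 11.1-fold for AC alone, against 8.67-fold and 8.68-fold for DMZ alone. The order of these medians was thus opposite at the 2 stages, with only 26 regions in the DMZ set. At stage 12 the replicates differed in order. The medians there were 8.46-fold and 7.82-fold for AC alone, against 6.98-fold and 8.55-fold for DMZ alone.

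The leading AC regions without a DMZ peak, ranked by the lower of their AC folds, differed in how they stood at later stages. Chr06:15904012-15904561 had 17.6-fold and 17.1-fold in AC, 16.5-fold and 15.4-fold at stage 10.5, 7.78-fold and 7.04-fold at stage 12, and 5.43-fold and 11.02-fold at stage 16. It was lower in all 4 later lists than in both stage 10.5 lists. Chr07:38396933-38397193 had the opposite order, with 10.5-fold and 12.4-fold at stage 10.5, 17.7-fold and 13.2-fold at stage 12, and 28.1-fold and 18.2-fold at stage 16. Its AC values were 16.0-fold and 19.1-fold. Folds of different lists are not on a common scale, so neither order shows a change with time. The medians over all regions that opened and were kept were 7.10 and 9.52 at stage 10.5 and 11.9 and 11.4 at stage 16. Chr03:129191075-129191217 had 14.9-fold and 16.8-fold in AC and 20.9-fold and 14.9-fold at stage 12, but stage 16 replicate 2 gave no peak on the region itself. The other 2 of these 5 lay on scaffold_39:1394475-1394954, with 16.2-fold and 19.6-fold in AC, and on Chr01:114990424-114990654, with 15.5-fold and 14.8-fold. The nearest stage 9 peak lay only 0.098 kb from the Chr03 region and 0.242 kb from the Chr01 region. It lay 1.36 kb from the Chr06 region, 29.0 kb from the Chr07 region and 255 kb from the scaffold_39 region. The Chr03 region was also 0.025 kb from another stage 10.5 region.

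The leading DMZ regions without an AC peak, ranked by the lower of their DMZ folds, had DMZ folds between 6.40 and 7.87. Chr08:46804804-46805217 had 6.95-fold and 7.08-fold in DMZ, 7.84-fold and 16.7-fold at stage 10.5, 7.33-fold and 9.50-fold at stage 12, and 12.5-fold and 9.85-fold at stage 16. Chr02:146989285-146989745 had 6.73-fold and 7.16-fold in DMZ, 11.1-fold and 12.7-fold at stage 10.5, 5.05-fold and 8.45-fold at stage 12, and 6.43-fold and 8.44-fold at stage 16. Chr03:44320668-44321112 was the highest of these 5 in all 4 lists of stages 10.5 and 12, though not at stage 16, with 13.4-fold and 18.0-fold at stage 10.5, 10.9-fold and 15.4-fold at stage 12, and 10.97-fold and 10.5-fold at stage 16, beside 6.97-fold and 6.71-fold in DMZ. Chr03:120660650-120661214 had 6.52-fold and 7.87-fold in DMZ, and Chr04:83008135-83008480 had 7.79-fold and 6.40-fold. In each of the 5, stage 10.5 replicate 2 was higher than stage 10.5 replicate 1. The medians over all regions that opened and were kept had the same order, with 9.52 against 7.10.

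Regions that opened and were kept lay nearer to chromatin that was open throughout than regions open only at stage 10.5 did. The rule barred both classes from overlapping a stage 9 peak, and these distances are not given for all stage 10.5 regions. From regions that opened and were kept, the median distance to the nearest region open from stage 9 through 16 was 49.1 kb. For regions open only at stage 10.5 it was 71.0 kb. Within 10 kb of such a region lay 22.4% of them, against 18.1% of the regions open only at stage 10.5. A stage 9 peak of either list was nearer, at a median of 8.76 kb, against 14.6 kb for regions open only at stage 10.5. The nearest other stage 10.5 region lay at a median of 2.67 kb, and 34.6% had another within 1 kb. Regions open from stage 9 through 16 had their nearest neighbour at a median of 1.89 kb, and regions open only at stage 10.5 at 8.23 kb.

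**Figure D4:**
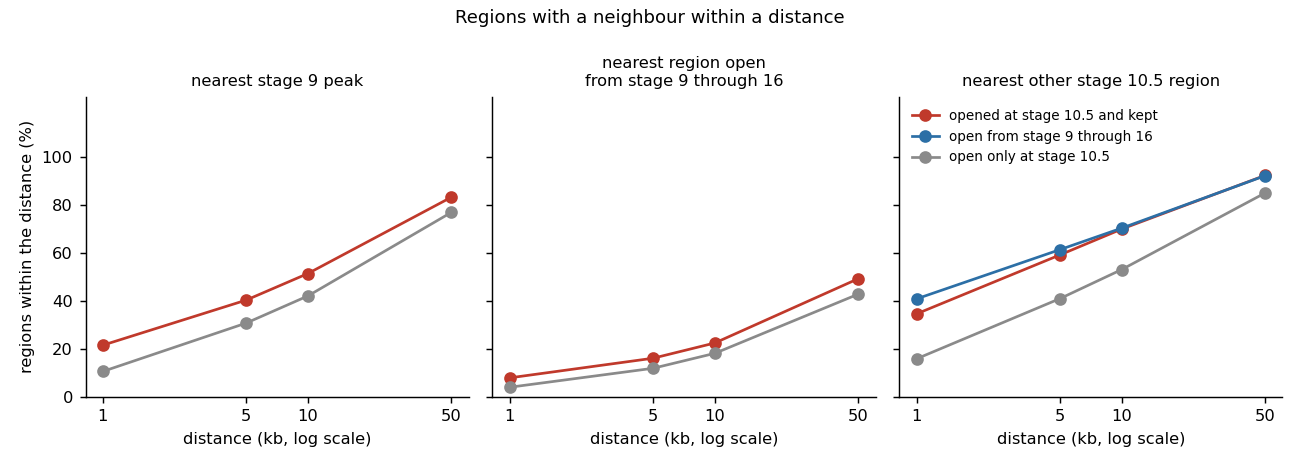
Share of regions in percent (y axis) with a neighbour within 1, 5, 10 and 50 kb (x axis, log scale), for the nearest stage 9 peak (left), the nearest region open from stage 9 through 16 (middle) and the nearest other stage 10.5 region (right). Regions that opened and were kept (red) lie above those open only at stage 10.5 (grey) at each distance in all 3 panels, with 34.6% against 15.9% within 1 kb of another stage 10.5 region.

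Where regions that opened and were kept stood within 10 kb of each other they were joined into chains. There were 5055 regions (61.6%) alone and 3150 (38.4%) in 1297 chains of 2 or more, and 44 chains held 5 or more. The longest chains were picked after their length was seen. The longest held 12 regions over 31.1 kb on Chr02:70612600-70643742. In that span lay 18 stage 10.5 regions, of which 3 overlapped a stage 9 peak and none was open from stage 9 through 16. Of the 12 regions, 7 had an AC region and 1 a DMZ region, near the 58.0% and 11.7% of all regions that opened and were kept. The second region of the chain, at 6.26 kb, had the highest lowest fold over the 6 lists of stages 10.5, 12 and 16, with 14.1-fold and 15.9-fold at stage 10.5, 12.5-fold and 12.0-fold at stage 12, 20.6-fold and 20.4-fold at stage 16, and 11.4-fold and 13.2-fold in AC. In DMZ it had 5.04-fold in replicate 1 and no peak in replicate 2. The region with a DMZ region, at 22.6 kb, had 6.58-fold and 9.44-fold in AC and 7.15-fold and 5.07-fold in DMZ.

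**Figure D5:**
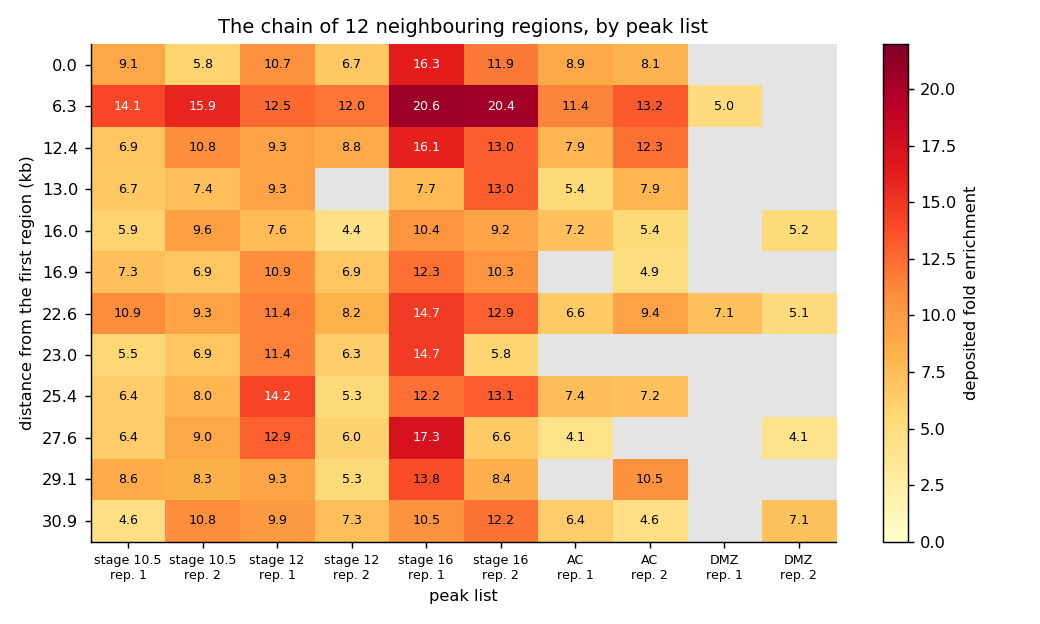
Deposited fold enrichment (colour and printed value) of the 12 regions in the longest chain (rows, by distance in kb from the first region) in 10 peak lists (columns). Grey cells have no peak of that list on the region. A peak that spans neighbouring regions gives its value to each of their rows. Peaks are missing in 10 of 12 rows for DMZ replicate 1 and in 8 of 12 for DMZ replicate 2, near the shares over all regions that opened and were kept, of which 19.9% and 28.1% had a peak in these lists.

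The chain next in length held 11 regions over 40.8 kb on Chr03:113045368-113086210, of which 4 had an AC region and 1 a DMZ region. Chains of 9 regions lay on Chr03:20863417-20898133, Chr05:126727642-126776579 and Chr06:18532149-18557274. The Chr05 chain was the DMZ-rich one, where 3 of its 9 regions had an AC region and 5 a DMZ region. In the Chr06 chain 6 regions had an AC region and no region had a DMZ region. An explant or later peak that spans neighbouring regions of a chain counts for each of them. In the 9-region Chr03 chain a single 459-base region at Chr03:20888035-20888493 stood out, with 18.0-fold and 26.8-fold at stage 10.5, 15.3-fold and 19.1-fold at stage 12, and 20.6-fold and 18.4-fold at stage 16. It had a peak in all 4 explant lists, with 9.52-fold and 14.6-fold in AC and 8.72-fold and 7.08-fold in DMZ.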

How the data were processed

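Per the submitters' processing notes, reads of the 12 ATAC-seq libraries were aligned with Bowtie2 and peaks called with MACS2, and each library has its own deposited list. Versions and the genome build were not given in the sources used here. Each deposited list gives a peak's fold enrichment (a ratio of pile-up to estimated background), its −log10 p and −log10 q, and its summit, as the authors' caller wrote them. No deposited q was above 0.01 and the narrowest peak was 73 bases. Reads per library are unknown, so no counting interval is given, and the number of peaks limits precision.

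Merged regions, overlaps of at least 1 base, distances and shares were computed in Python 3.11.15 with numpy 2.4.6 and pandas 2.3.3, and tested on simulated intervals against bedtools 2.31.1. A region's value in a list is the highest fold of the peaks on it, and coordinates are 1-based. Two-sided exact permutation tests ran over libraries, never over regions. The regions and classes were chosen with earlier results of these data known. Named regions are the 5 with the highest lowest fold over the 6 lists of stages 10.5, 12 and 16, and the 5 for each explant alone with the highest lower fold in that explant, plus those at the limit of the rule. Alternatives covered overlap, q threshold, list length, single stage 9 peaks and left-out libraries. RNA and single-cell tables, nuclei fragments and gene annotation were not used here, since the furthest peak ends on all 10 chromosomes fall short of the gene table's on assembly 10.0, a sign of another build.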

Additional observations from a re-analysis of the deposited data

How the results depend on the processing

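The count of 8205 regions was 5451 when stage 10.5, 12 and 16 peaks needed a −log10 q of 5 or more, 14469 when single stage 9 peaks were allowed and 566 with the same number of peaks in every stage list. With 1 stage list left out at a time it ran from 8348 (without stage 16 replicate 1) to 13269 (without stage 9 replicate 2). The share with an AC region was 58.0%, but 47.6% with explant peaks of −log10 q 5 or more, 80.01% with a peak of either list and 20.4% with equal lists. The share with a DMZ region was 11.7%, but 35.8% with a peak of either list and 6.12% at the stricter q. With 1 library of the tissue left out, these shares ran from 64.6% to 73.0% for AC and from 19.9% to 28.1% for DMZ. The AC minus DMZ difference kept its sign in every alternative run, from 7.56 points with equal lists to 49.0 points without AC replicate 1, with exact p from 0.33 to 0.667. With libraries of the same number as a replicate block it was 44.8 points (exact sign-flip permutation p = 0.5), and since the libraries share only a number in 2 pairs, this adds no evidence. The differences from the other classes also kept their signs, between -64.7 and -24.1 points for regions open from stage 9 through 16 and between 9.12 and 32.3 points for regions open only at stage 10.5. Alternatives with equal lists within groups of like height and the replicate block were chosen after seeing the data. The 3 planned analyses that need coordinates of another build (genes near the regions, nuclei fragments over them and motif letters in them) were not run.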

Other observations

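Regions that opened and were kept within 1 kb of a region open from stage 9 through 16 (648 of 8205) had an AC share of 73.5% in replicate 1 and 64.4% in replicate 2. At 1 to 10 kb the shares were 62.5% and 76.1%, at 10 to 50 kb 64.6% and 73.2%, and beyond 50 kb 63.8% and 73.3%. Replicate 1 was thus the higher list next to chromatin open throughout and the lower list in the other 3 distance classes, a pattern noticed after the values were seen. The DMZ shares were 21.0% and 21.3% within 1 kb, 21.5% and 32.0% at 1 to 10 kb, 21.3% and 30.1% at 10 to 50 kb, and 18.5% and 26.9% beyond 50 kb.

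Among regions that opened and were kept, the wider ones had an explant peak more often. Regions of up to 200 bases (2472) had 55.9% and 60.7% in AC and 8.37% and 13.1% in DMZ, and those over 500 bases (507) had 75.1% and 85.2% in AC and 40.6% and 52.1% in DMZ. Their median stage 10.5 fold, the geometric mean of both lists, was 6.69 and 11.4 in those width classes, and its part in the shares was not tested. A wider region also has more bases on which a peak can overlap it by at least 1 base. Explant shares over all stage 10.5 regions are not given by width, so these values have no background.

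By chromosome, the share of stage 10.5 regions that opened and were kept ran from 25.7% on chromosome 3 to 31.0% on chromosome 7, and it was 24.9% on unplaced scaffolds. The share of them with a DMZ region ran from 8.75% on chromosome 3 to 17.5% on chromosome 10, against 11.7% overall. Their share with an AC region was also highest on chromosome 10 among the chromosomes, at 63.4%, and was 54.0% on chromosome 3. Explant shares over all stage 10.5 regions are not given by chromosome, so these values have no background.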
